A study of Homo sapiens with 30 samples.

Results

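The 37 integrin and laminin genes described here are 18 integrin alpha chains, 8 integrin beta chains and 11 laminin chains. They were chosen by name among the protein-coding genes of 2 deposited tables of read counts, which hold 40950 genes. The rule took symbols of integrin or laminin chains and was set with earlier results of these data known. RNA was sequenced from sorted cells of MDA-MB-231, an established human line of invasive breast cancer, which had been marked with LeGO lentiviral barcodes and which grew in NOD-SCID-IL2Rγc−/− (NSG) mice. In the first experiment subclone 13 and subclone 2 were each sorted from lung metastases, liver metastases and the primary tumour of mice 1, 2 and 3, which gives 6 groups of 3 samples. In the retransplantation experiment subclone 2 was sorted from lung and liver of mice 4, 5 and 6, as 2 groups of 3 samples, and the labels do not say whether the organ named is where those cells came from or where they grew. Each subclone is 1 clone, so a difference between subclones is a difference between 2 clones. All groups share the use of LeGO barcodes and the host strain. NSG hosts lack lymphocytes but keep mouse myeloid cells and stroma. The study's title asks whether the site of growth sets the transcriptome, which is the question behind the organ comparisons.

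Laminins are trimers of one alpha, one beta and one gamma chain that polymerise into the basement membrane, the sheet beneath epithelia and around vessels. Integrins are receptors of one alpha and one beta chain that span the plasma membrane, bind laminin, collagen, fibronectin or proteins of other cells, and couple them to the cytoskeleton. Laminin-332, whose alpha and beta chains LAMA3 and LAMB3 encode, is the epithelial laminin that integrins α6β4 and α3β1 bind, while LAMB1 and LAMC1 encode the beta and gamma chains that most other laminins share. In breast cancer, laminin-332 and its receptors have long been studied for their part in invasion, and integrin α5β1, the fibronectin receptor, for its part in adhesion at distant sites.

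The laminin chains that the comparisons turn on lie at 3 sites. On GRCh38 with the GENCODE 29 annotation, LAMC1 is at chr1:183023460-183145592 on the plus strand, LAMB1 at chr7:107923799-108003255 on the minus strand and LAMA3 at chr18:23689443-23956222 on the plus strand. Promoter sequence of 26 of the 37 genes was found in a RefSeq table for GRCh38.p14, with 33 start sites among them. The 250 bases before a start site of LAMC1 and LAMB1, whose lung samples were all below the tumour samples, and of LAMA3 and LAMB3, chains of laminin-332, are shown so that both kinds of laminin promoter can be compared. Capitals mark TGANTCA, the core of AP-1 sites, and GGGCGG, the GC box of Sp1 sites, each searched on both strands with overlapping matches allowed.
LAMC1: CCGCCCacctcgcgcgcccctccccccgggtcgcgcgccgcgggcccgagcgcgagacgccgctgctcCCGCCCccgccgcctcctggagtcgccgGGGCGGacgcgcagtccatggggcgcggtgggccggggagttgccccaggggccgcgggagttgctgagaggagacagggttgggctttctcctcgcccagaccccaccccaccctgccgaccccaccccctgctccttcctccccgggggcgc
LAMB1: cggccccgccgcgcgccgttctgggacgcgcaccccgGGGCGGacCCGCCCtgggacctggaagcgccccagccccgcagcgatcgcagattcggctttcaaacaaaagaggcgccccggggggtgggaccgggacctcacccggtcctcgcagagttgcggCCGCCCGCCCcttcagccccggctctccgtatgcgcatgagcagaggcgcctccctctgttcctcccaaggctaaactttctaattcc
LAMA3: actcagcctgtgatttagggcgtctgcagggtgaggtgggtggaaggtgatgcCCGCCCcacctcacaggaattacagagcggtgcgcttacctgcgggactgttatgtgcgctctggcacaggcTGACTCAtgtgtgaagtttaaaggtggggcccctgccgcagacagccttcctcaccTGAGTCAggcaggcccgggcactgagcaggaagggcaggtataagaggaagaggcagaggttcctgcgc
LAMB3: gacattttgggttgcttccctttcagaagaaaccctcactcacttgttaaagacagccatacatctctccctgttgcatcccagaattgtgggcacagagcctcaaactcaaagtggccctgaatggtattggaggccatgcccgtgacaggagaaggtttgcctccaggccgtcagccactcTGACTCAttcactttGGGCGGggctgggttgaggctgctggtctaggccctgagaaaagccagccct
The LAMC1 window is chr1:183023170-183023419 on the plus strand, the LAMB1 window chr7:108003162-108003411 on the minus strand, the LAMA3 window chr18:23872770-23873019 on the plus strand and the LAMB3 window chr1:209651375-209651624 on the minus strand. The LAMA3 window lies inside the span given above for that gene, before an internal start site. The LAMB3 window too lies inside its gene, which spans chr1:209614870-209652466. LAMC1 holds 3 GC boxes and LAMB1 holds 4, of which a pair overlaps, and neither window holds TGANTCA. LAMA3 and LAMB3 hold 1 GC box each. LAMA3 holds TGACTCA at -125 to -119 and TGAGTCA at -69 to -63, counted back from the start site, and LAMB3 holds TGACTCA at -67 to -61. The table has 3 start sites of LAMB3, and the window shown was picked for its TGANTCA match: the windows of the other two hold none, and 1 GC box each. These 2 windows are the only ones of the 33 with TGANTCA, which 6.57% of 35116 promoters of that table hold, while 17 of the 33 hold GGGCGG, against 42.6% of all. A match describes these letters only.

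The 18 samples of the first experiment held 11807225 to 82218315 counts each and the 6 of the retransplantation 23406778 to 32322333. VIM, EGFR, AXL and CD44, which mark this mesenchymal line, summed to 3714 to 11548 counts per 1000000 (CPM) in the first experiment, and ESR1, PGR, CDH1 and GATA3, which it lacks, to at most 9.01 CPM. Markers of other cells were not all at 0, and some sums differed by organ. PDGFRB, DCN, LUM, ACTA2 and RGS5 of fibroblasts and pericytes summed to 11.5 to 22.5 CPM in lung, 20.1 to 30.4 CPM in liver and 35.4 to 40.8 CPM in tumour samples of subclone 13, and to 11.6 to 23.7, 10.4 to 18.6 and 27.8 to 30.8 CPM in lung, liver and tumour samples of subclone 2. The 4 hepatocyte markers found in the table (SERPINA1, APOA1, ALB and FGB) summed to 88.9 to 109 CPM in lung, 170 to 213 CPM in liver and 141 to 236 CPM in tumour samples of subclone 13, and to 32.3 to 87.7, 26.3 to 56.7 and 59.8 to 67.1 CPM in those of subclone 2. Most of that was SERPINA1, with ALB at most at 0.806 CPM and FGB at most at 0.0512 CPM. The 5 endothelial markers summed to 12.0 to 17.7, 18.3 to 47.8 and 17.6 to 25.6 CPM in lung, liver and tumour samples of subclone 13 and to 14.8 to 17.3, 28.7 to 33.6 and 15.4 to 18 CPM in those of subclone 2, mostly PECAM1, with CDH5 at most at 1.56 CPM and VWF at most at 0.741 CPM. The 4 leukocyte markers found in the table (PTPRC, CD3E, CD79A and LYZ) summed to at most 4.03 CPM in the first experiment and 9.73 CPM in the retransplantation. In the first experiment each mouse was read in its own sequencing run, except that subclone 13 of mouse 1 has libraries from runs 1, 2 and 3, so mouse and run cannot otherwise be told apart. Samples of the same mouse deviated together, so each test is given without and, where it matters, with mouse as a block.

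ITGB1 and the chains ITGA3, ITGA6 and ITGB4 of laminin-binding integrins had the highest levels among the integrin transcripts. Levels of chain RNA do not show which pairs form. Over the 18 samples of the first experiment, ITGB1, the beta chain shared by most matrix integrins, had the highest level of all 37 genes, with a mean of 267 CPM per kb of exon (1605 CPM, from 886 to 2480). ITGA3, the alpha chain that pairs with it on laminin, followed with 175 CPM per kb (1715 CPM, 1109 to 2716). ITGA6 (134 CPM per kb; 502 to 1421 CPM) and ITGB4 (121 CPM per kb; 515 to 1418 CPM) encode the hemidesmosome receptor α6β4. These 4 chains made up 29.1%, 19.1%, 14.6% and 13.2% of the summed integrin level per kb. The collagen receptor chain ITGA2 (51.4 CPM per kb), the fibronectin receptor chain ITGA5 (48.4), the collagen receptor chain ITGA10 (47.2) and ITGB5, the partner of the αv chain on vitronectin (43.0), came next, and ITGAV, which encodes that αv chain, had 17.6 CPM per kb.

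Among laminins, LAMB3 was highest at 102 CPM per kb (479 CPM, 154 to 883) and made up 33.3% of the summed level per kb of the 11 laminin genes. LAMA5, the alpha chain of laminin-511 and laminin-521, had 76.7 CPM per kb (1096 CPM, 375 to 2177). LAMB2, the beta chain of laminin-521, had 47.4 CPM per kb (326 CPM, 131 to 550), and LAMB1 followed with 37.4 (304 CPM, 136 to 502). The level of LAMA3 was 8.84 CPM per kb, below that of LAMB3. The ranges of neighbours in this order overlap between samples. The retransplantation had the same 6 genes at the top and in the same order, with ITGB1 at 172 and ITGA3 at 156 CPM per kb.

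Many chains were close to absent. Of the 36 genes listed in the first table, 18 averaged at least 10 CPM and 15 did not reach 4 CPM in any sample. Over the 18 samples LAMC3 had 3 counts in all, ITGAD 8, ITGAL 13, LAMB4 31 and LAMA1 50, and ITGAL encodes the leukocyte integrin chain that pairs with ITGB2. ITGA8 was listed in the retransplantation table only, with 6 counts. A filter on low counts left 29 of the 36 genes for testing in the first experiment and 27 of 37 in the retransplantation; the genes that did not pass it are described by their levels alone.

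**Figure D1:**
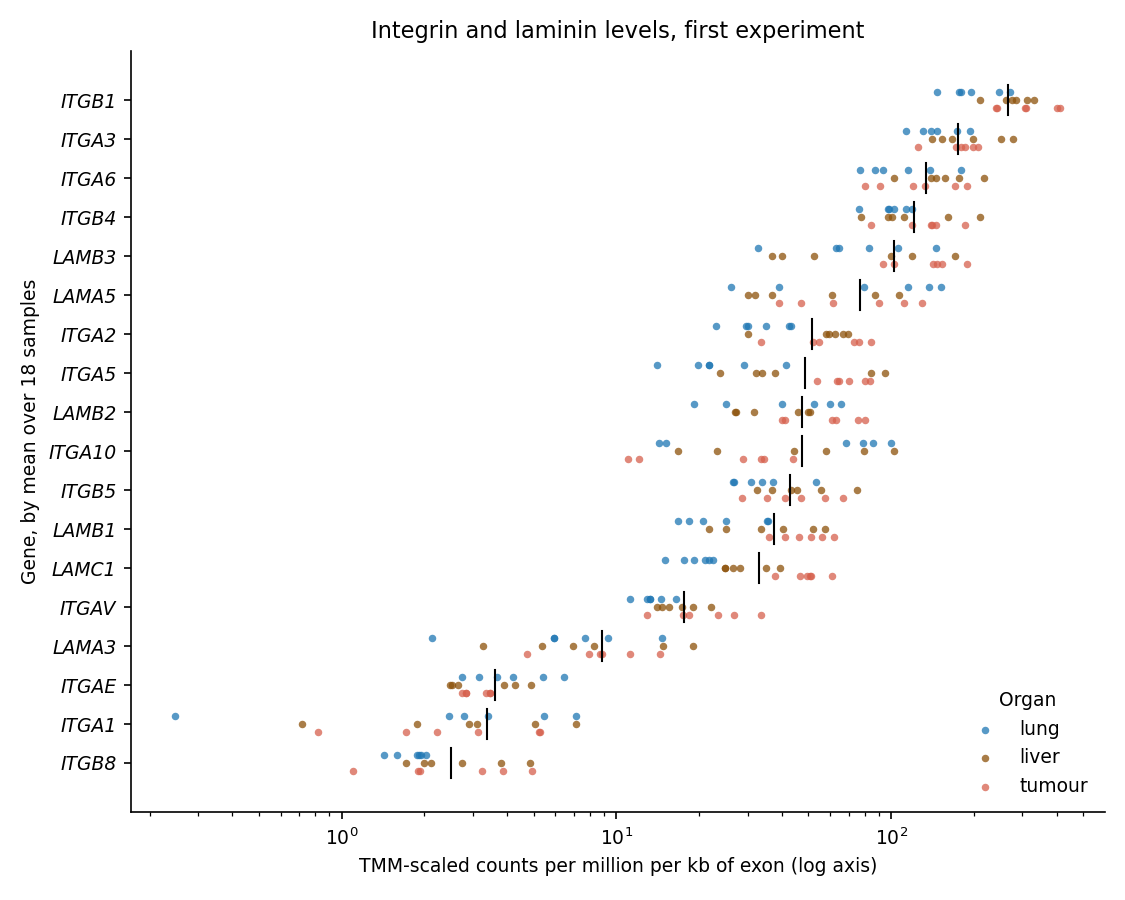
Level of the 18 genes that averaged at least 10 CPM in the first experiment, in CPM per kb of exon on a log axis, with 1 point a sample coloured by organ and a vertical line at the mean over 18 samples. ITGB1, ITGA3, ITGA6 and ITGB4 lie above the other integrin chains on average, and LAMB3 and LAMA5 head the laminins.

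In lung metastases LAMC1, the common gamma chain of laminins, was lower than in the primary tumour in both subclones. It had 176, 189 and 162 CPM in lung and 510, 391 and 416 CPM in tumour samples of subclone 13 from mice 1, 2 and 3. In subclone 2 it had 182, 148 and 126 CPM in lung and 428, 318 and 427 CPM in tumour. Every lung sample was below every tumour sample. LAMC1 fell by 1.32 ± 0.22 in subclone 13 and by 1.36 ± 0.22 in subclone 2 on the log2 scale (SE, n = 3 mice, edgeR adjusted p 0.0113 and 0.0101). It was the only one of the 29 genes tested that passed in either subclone; over all 17418 genes tested 0.419% passed in subclone 13 and 0.436% in subclone 2. In bulk RNA from a sorted population, fewer cells that make a transcript and less transcript per cell cannot be told apart. The summed fibroblast and pericyte markers given above were also lower in lung and in liver than in tumour samples, and PDGFRB made up most of the tumour sums, at 7.68 to 18.2 CPM in lung and 28.0 to 36.8 CPM in tumour samples of subclone 13 and at 5.24 to 16.5 and 23.6 to 27.2 CPM in those of subclone 2. DCN was at most at 0.392 CPM in any of these samples, ACTA2 in subclone 2 had 1.64 to 3.77 CPM in lung and 1.34 to 1.85 CPM in tumour, and RGS5 in subclone 13 had 2.30 to 2.91 CPM in liver and 1.28 to 2.01 CPM in tumour. The hepatocyte sum was lower in lung than in tumour in subclone 13 as well. The part of these markers in the LAMC1 values was not tested. Within mouse 1 the libraries of subclone 13 from runs 1, 2 and 3 gave LAMC1 at 153, 148 and 154 CPM in lung and 469, 466 and 474 CPM in tumour before scaling, so its difference was there in each run.

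LAMC1 kept its direction whichever sample was left out, between -1.47 and -1.20 in subclone 13 and between -1.50 and -1.23 in subclone 2. In subclone 13 its edgeR adjusted p was above 0.05 without the lung sample of mouse 2 (0.0527) or mouse 3 (0.0779), the tumour sample of mouse 1 (0.0676), or all samples of mouse 1 (0.0603), mouse 2 (0.279) or mouse 3 (0.304). In subclone 2 it was above 0.05 without the lung sample of mouse 2 (0.0632) or mouse 3 (0.0552), or all samples of mouse 2 (0.358) or mouse 3 (0.318).

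With mouse as a block, 2 of the 29 genes passed in subclone 13 and 5 in subclone 2, against 2.89% and 3.05% of all genes tested. LAMB1, the beta chain most often joined to LAMC1, had 136, 149 and 167 CPM in lung and 333, 292 and 417 CPM in tumour samples of subclone 2. It fell by 1.21 ± 0.26 with the block (edgeR adjusted p 0.0147), against -1.20 ± 0.30 without it (adjusted p 0.110, with 0.0147 to 0.551 over 15 alternatives). In subclone 13, LAMB1 had 203, 286 and 290 CPM in lung and 457, 375 and 502 CPM in tumour, also without overlap, but the difference of -0.77 ± 0.30 did not pass (edgeR adjusted p 0.447; 0.118 with the block). LAMA3 (-0.44 ± 0.46 and -0.20 ± 0.46 in subclones 13 and 2) and LAMB3 (-0.76 ± 0.47 and -0.73 ± 0.47), chains of laminin-332, did not pass in either fit. LAMA5 stood at 0.21 ± 0.60 and 0.19 ± 0.60. Of the 8 laminin genes tested, 7 had a fitted value below 0 in subclone 13 (median -0.71) and 6 in subclone 2 (median -0.24), while the median over all genes was 0.03 and 0.05.

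**Figure D2:**
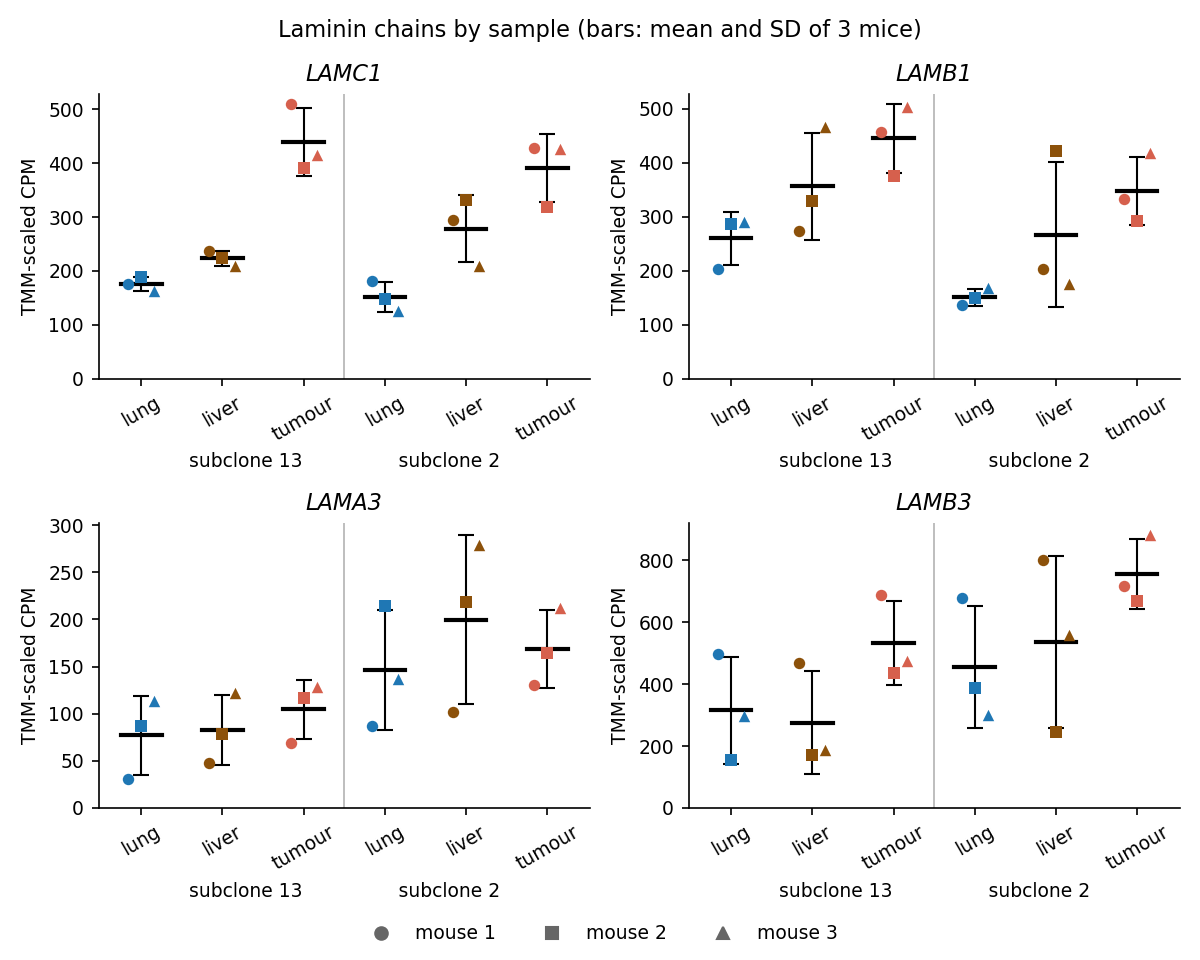
CPM in every sample of the first experiment for LAMC1, LAMB1, LAMA3 and LAMB3, with marker shapes for mice 1, 2 and 3 and bars for the mean and SD. LAMC1 reaches 162 to 189 CPM in lung and 391 to 510 CPM in tumour samples of subclone 13, and LAMB3 overlaps between lung and tumour in both subclones.

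Of the 21 integrin genes tested between lung and tumour, 0 passed without the block, although 4 in subclone 13 and 6 in subclone 2 had an unadjusted p under 0.05, which 7.76% and 9.32% of all genes had. ITGA5 (chr12:54395261-54419460, minus strand), the alpha chain of the fibronectin receptor, had 221, 165 and 150 CPM in lung and 632, 534 and 607 CPM in tumour samples of subclone 13. In subclone 2 it had 314, 165 and 106 CPM in lung and 490, 409 and 483 CPM in tumour. No lung sample reached the tumour range of its subclone. ITGA5 fell with the block by 1.77 ± 0.29 in subclone 13 (edgeR adjusted p 0.00223) and by 1.39 ± 0.29 in subclone 2 (0.0119). Without the block the values were -1.73 ± 0.47 and -1.24 ± 0.46, with edgeR adjusted p of 0.148 (2.71e-05 to 1 over 15 alternatives) and 0.371 (0.0119 to 1). Its partner ITGB1 stood at -0.64 ± 0.28 and -0.66 ± 0.28 and passed in neither fit.

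ITGA2 (chr5:52989326-53094779, plus strand), the alpha chain of the collagen receptor α2β1, had 334, 277 and 235 CPM in lung and 580, 667 and 411 CPM in tumour samples of subclone 2, again without overlap. It fell by 0.96 ± 0.21 with the block (edgeR adjusted p 0.0173), against -0.97 ± 0.33 without it (0.280; 0.0173 to 1 over 15 alternatives). In subclone 13 the 342, 238 and 183 CPM of lung overlapped the 605, 431 and 265 CPM of tumour, at -0.77 ± 0.32. ITGB2 (chr21:44885953-44931989, minus strand), the beta chain of leukocyte integrins, went the other way, at a low level. It had 4.51, 20.5 and 20.4 CPM in lung and 2.11, 3.82 and 4.05 CPM in tumour samples of subclone 2, every lung sample above every tumour sample. ITGB2 rose by 2.13 ± 0.55 with the block (edgeR adjusted p 0.0397), against 2.18 ± 0.61 without it (0.151; 0.00786 to 1 over 15 alternatives). In subclone 13 it had 4.22, 5.54 and 12.9 CPM in lung and 5.78, 2.00 and 1.75 CPM in tumour samples of mice 1, 2 and 3, which overlap through mouse 1, where lung was lower. The difference of 1.23 ± 0.59 did not pass (edgeR adjusted p 0.648; 0.481 with the block), but without mouse 1 it was 2.30 ± 0.42 (0.0190 by edgeR). The 4 leukocyte markers summed to at most 1.56 CPM in lung and 1.15 CPM in tumour samples of subclone 2, with CD3E at 0 in both, and the leukocyte alpha chain ITGAL had 13 counts in all 18 samples. ITGAM, the alpha chain that pairs with ITGB2 on myeloid cells, had 0, 1.32 and 1.23 CPM in lung and 0, 0.510 and 0.323 CPM in tumour samples of subclone 2 from mice 1, 2 and 3, higher in lung in the same mice 2 and 3 in which ITGB2 was highest, at 1.61 ± 1.49 (edgeR adjusted p 0.836). ITGAX, another leukocyte alpha chain, was at 0 CPM in all of those lung samples and at most at 0.0637 CPM in the tumour samples. The platelet marker PF4 had 0, 0.746 and 1.56 CPM in those lung samples and 0, 0.127 and 0.0691 CPM in the tumour samples. PPBP, another platelet marker, was at 0 CPM in all of these lung and tumour samples. The part of such cells in the ITGB2 values was not tested. ITGB2 and its antisense gene ITGB2-AS1 share 303 exonic bases, with 3907 and 973 counts in all, and the library kit keeps no strand, so their reads cannot be told apart there.

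**Figure D3:**
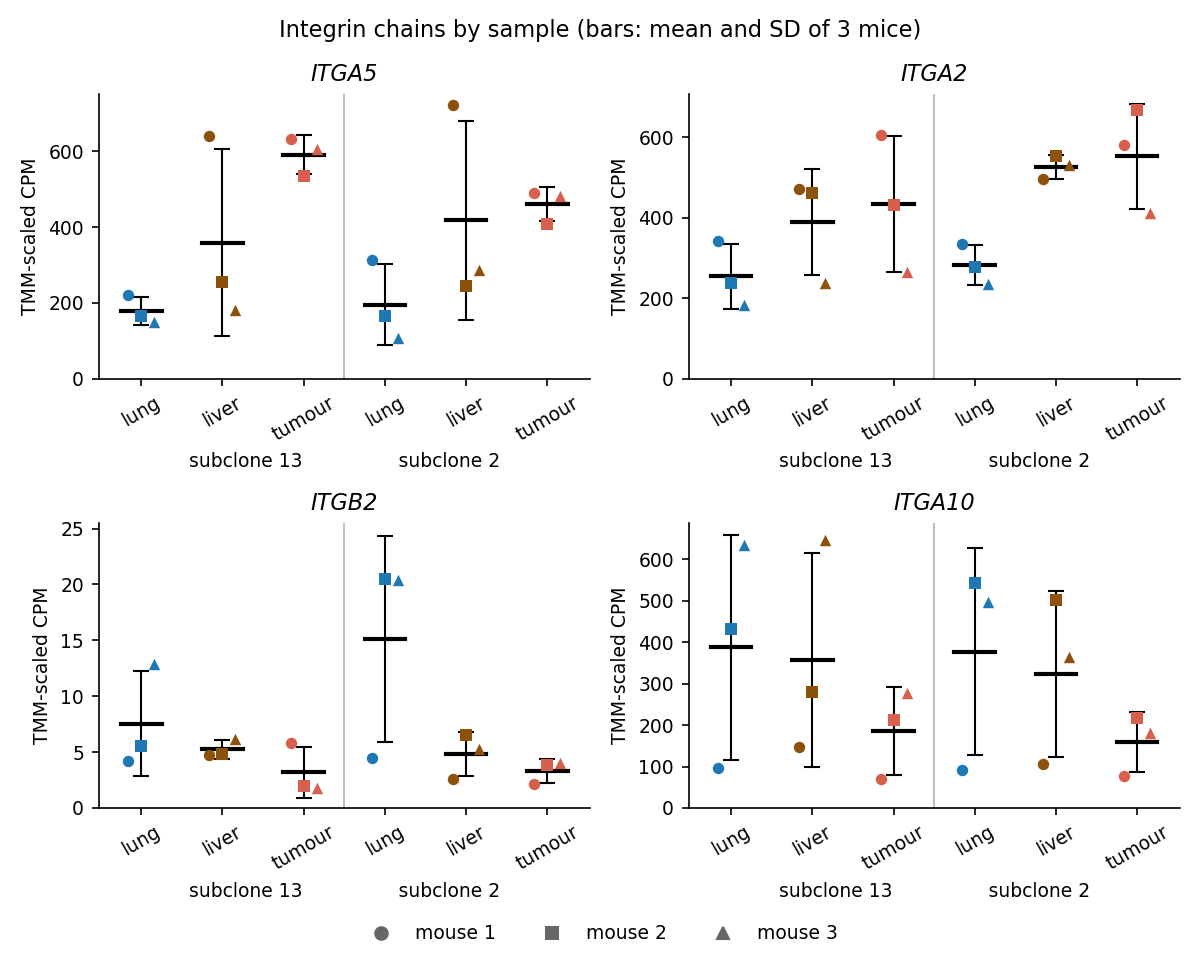
CPM in every sample of the first experiment for ITGA5, ITGA2, ITGB2 and ITGA10, with marker shapes for mice 1, 2 and 3 and bars for the mean and SD. ITGA5 is lower in lung than in tumour in every mouse, and ITGA10 is lower in mouse 1 than in mice 2 and 3 in every organ.

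In liver metastases the fitted value of LAMC1 was also below the tumour in both subclones, nearer to 0 than in lung. LAMC1 had 237, 223 and 210 CPM in liver and 510, 391 and 416 CPM in tumour samples of subclone 13, without overlap, and fell by 0.97 ± 0.18 with the block (edgeR adjusted p 0.00621). Without the block it was at -0.98 ± 0.22, just short of the threshold (edgeR adjusted p 0.0715; 0.000992 to 0.645 over 15 alternatives). In subclone 2 its 294, 331 and 210 CPM in liver overlapped the 428, 318 and 427 CPM in tumour, at -0.49 ± 0.22.

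So 0 of the 29 genes passed edgeR's test between liver and tumour without the block, in either subclone, where 0.385% of all genes passed in subclone 13 and 0.287% in subclone 2. With the block 1 passed in subclone 13 and 0 in subclone 2, against 1.83% and 1.68% of all genes. DESeq2 called 1 and 0 of them. The shares of all genes given here and below are edgeR's, so a DESeq2 count has no share of its own beside it. Before adjustment, 1 in each subclone had p under 0.05, against 5.98% and 6.65% of all genes. All 8 laminin genes tested had a fitted value below 0 in subclone 13 (median -0.52) and 7 of 8 in subclone 2 (median -0.50), while the 21 integrin genes had medians of 0.12 and -0.01. The median over all genes was 0.02 in subclone 13 and 0.05 in subclone 2. The chains were measured in the same samples, so they are not separate observations. ITGB1 (-0.12 ± 0.28 and -0.26 ± 0.28), ITGA3 and ITGA6 stayed within 0.32 of 0 in both subclones, and ITGB4 was at 0.12 ± 0.33 and -0.33 ± 0.33.

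**Figure D4:**
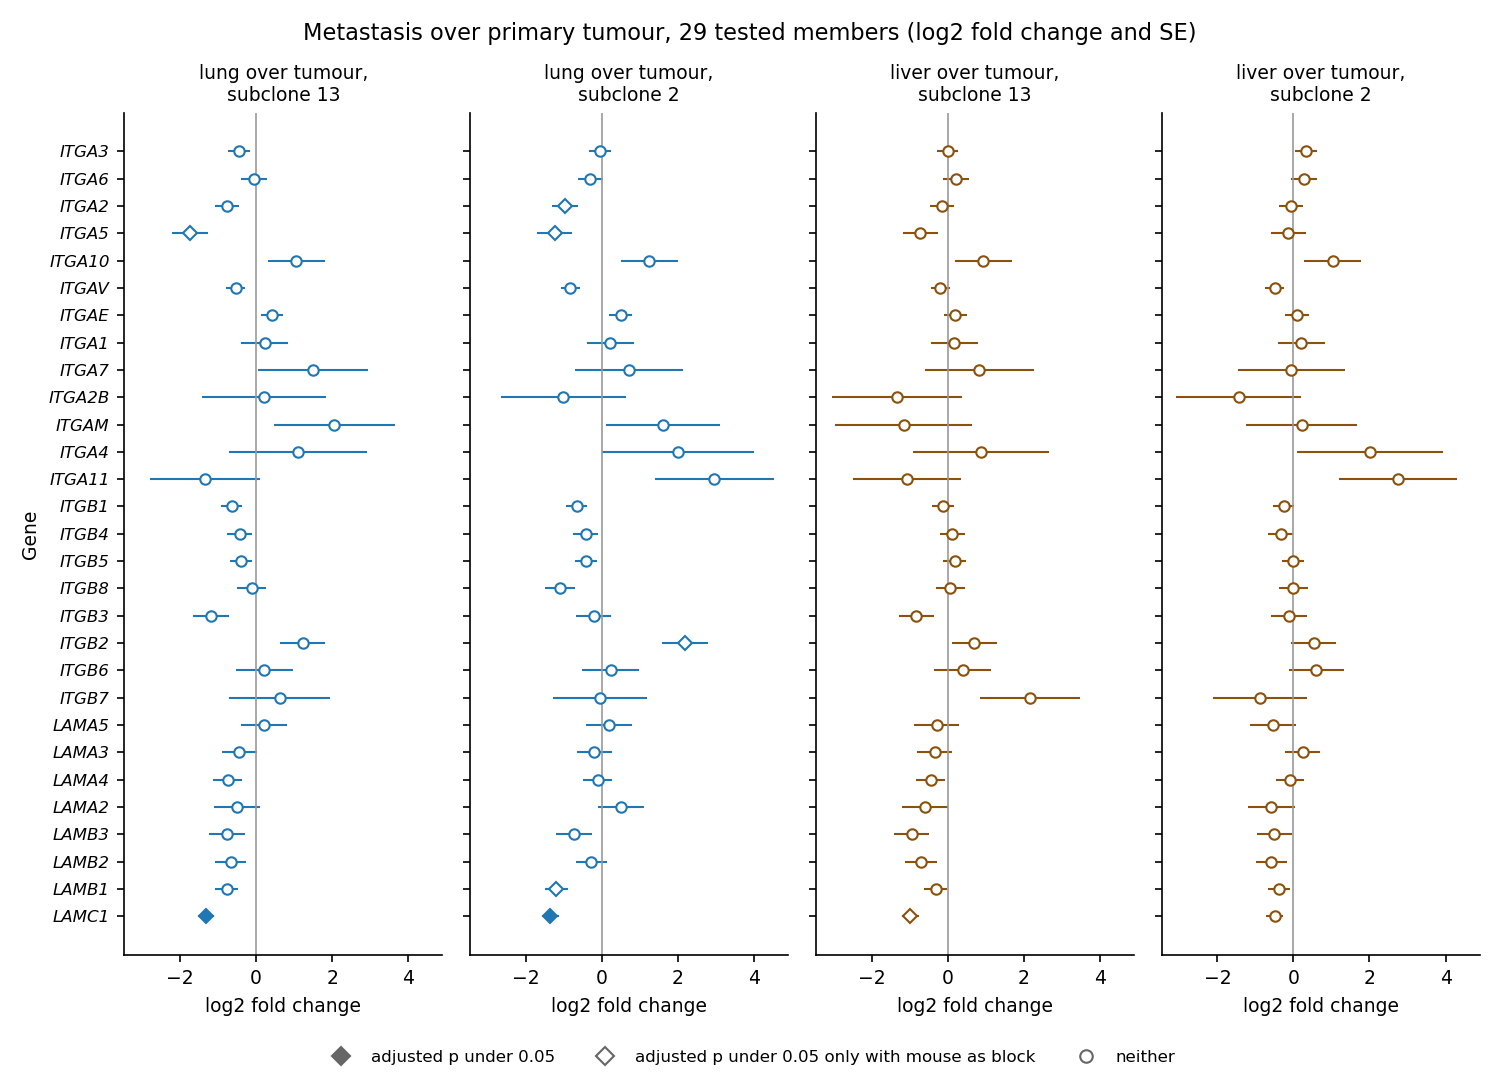
Log2 fold change of the 29 genes tested, lung over tumour and liver over tumour, in subclone 13 and subclone 2, with SE as bars. Filled diamonds mark genes with an edgeR adjusted p under 0.05, open diamonds those under it only with mouse as a block and circles all others; LAMC1 carries the filled diamonds, in lung over tumour of both subclones.

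Lung and liver metastases were then compared directly. Without the block 0 of 29 genes passed edgeR's test in either subclone, where 0 of all genes passed in subclone 13 and 0.0230% in subclone 2. At an unadjusted p under 0.05 there were 1 gene in subclone 13 and 6 in subclone 2 (4.55% and 9.29% of all genes), and DESeq2 called 0 and 1. With the block 0 passed in subclone 13, against 0.276% of all genes, and 3 fell in lung in subclone 2, against 2.95%. LAMC1 had 182, 148 and 126 CPM in lung and 294, 331 and 210 CPM in liver, without overlap, and fell by 0.87 ± 0.18 with the block (edgeR adjusted p 0.0155), against -0.87 ± 0.22 without it (0.187; 0.0128 to 1 over 15 alternatives). ITGA2 had 334, 277 and 235 CPM in lung and 495, 552 and 530 CPM in liver, without overlap. It fell by 0.94 ± 0.21 with the block (edgeR adjusted p 0.0229), against -0.90 ± 0.32 without it (0.362; 0.0229 to 1 over 15 alternatives). ITGA5 had 314, 165 and 106 CPM in lung and 721, 245 and 287 CPM in liver, which overlap although lung was lower in each mouse, and its block value of -1.07 ± 0.29 lay at the threshold (edgeR adjusted p 0.0499; without the block -1.10 ± 0.46 and 0.455, with 0.0499 to 1 over 15 alternatives). In subclone 13 the same 3 genes stood at -0.34 ± 0.22, -0.61 ± 0.32 and -1.01 ± 0.46.

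With mouse as a block the subclones differed in LAMA3, the alpha chain of laminin-332. In tumour it had 69.3, 117 and 128 CPM in subclone 13 and 130, 164 and 212 CPM in subclone 2, without overlap and lower in subclone 13 in each mouse, but the difference of -0.73 ± 0.23 with the block did not pass (edgeR adjusted p 0.256; -0.69 ± 0.46 and 1 without it). It had 31.2, 87.2 and 113 CPM in lung samples of subclone 13 and 87.4, 214 and 137 CPM in those of subclone 2. In liver it had 48.1, 78.7 and 122 CPM in subclone 13 and 102, 218 and 279 CPM in subclone 2. The groups overlap in lung and in liver, but within each mouse subclone 13 was lower. With the block LAMA3 fell by 1.04 ± 0.23 in lung (edgeR adjusted p 0.0293) and by 1.25 ± 0.23 in liver (0.00877). Without it the values were -0.93 ± 0.47 (edgeR adjusted p 0.764; 0.0293 to 1 over 15 alternatives) and -1.27 ± 0.47 (0.444; 0.00698 to 1). LAMB3, the beta chain of laminin-332, was at -0.50 ± 0.47 in tumour, -0.53 ± 0.47 in lung and -0.95 ± 0.47 in liver and passed in neither fit.

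Between subclones 0 of 29 genes passed edgeR's test without the block in any organ, where 0.109% of all genes passed in tumour, 0.184% in lung and 0.247% in liver. With the block 0 passed in tumour, and LAMA3 alone in lung and in liver, against 0.505%, 1.54% and 1.50% of all genes. DESeq2 called 0 in each organ; before adjustment 2 in each were under 0.05, against 4.36%, 7.03% and 7.23% of all genes in tumour, lung and liver. ITGA1, the alpha chain of the collagen receptor α1β1, went the other way. It had 97.0, 97.9 and 58.2 CPM in tumour, 63.0, 102 and 132 CPM in lung and 57.9, 93.7 and 132 CPM in liver samples of subclone 13, against 31.7, 41.5 and 15.3 CPM, 4.60, 45.7 and 52.1 CPM, and 13.3, 53.8 and 34.8 CPM in the same organs of subclone 2. Every sample of subclone 13 was above every sample of subclone 2 from the same organ, yet the differences of 1.52 ± 0.63, 1.53 ± 0.63 and 1.47 ± 0.63 passed in neither fit (edgeR adjusted p 1, 0.577 and 0.589; 0.282, 0.115 and 0.139 with the block). They passed only when no filter on low counts was used (0.000327, 0.000340 and 0.000706; up to 1 over 15 alternatives). The organs come from the same mice, and how many of all genes separate the subclones without overlap was not counted. ITGA1 shares 475 exonic bases with PELO on the same strand, which had 27141 counts beside the 34234 of ITGA1.

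Whether the organ differences themselves differed between subclones was tested as an interaction. By edgeR 0 of the 29 genes passed for lung over tumour, liver over tumour or lung over liver, with 0 genes at an unadjusted p under 0.05 and 0 called by DESeq2. Of all genes 0 passed without the block, and with it 0.00574% passed for liver over tumour and 0 for the others. LAMC1 had a difference, subclone 13 minus subclone 2, of 0.04 ± 0.31 in lung over tumour and -0.48 ± 0.31 in liver over tumour. ITGB8, a beta chain that pairs with αv, had the largest of these values among genes that averaged at least 10 CPM, at 1.0 ± 0.54 (lung over tumour -0.11 ± 0.38 in subclone 13 and -1.11 ± 0.39 in subclone 2; edgeR adjusted p of the difference 1).

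In the retransplantation, lung and liver samples of subclone 2 were compared in 27 genes. By edgeR 0 passed with or without the block, against 0 and 0.479% of all 17549 genes; before adjustment 3 had p under 0.05, against 12.5% of all genes, and DESeq2 called 1, ITGB5. LAMC1 had 263, 189 and 229 CPM in lung and 313, 241 and 212 CPM in liver samples of mice 4, 5 and 6, which overlap, at -0.17 ± 0.21. ITGB5, a vitronectin receptor chain, had 166, 246 and 233 CPM in lung and 130, 49.8 and 102 CPM in liver, every lung sample above every liver sample, but the difference of 1.20 ± 0.34 did not pass (edgeR adjusted p 0.240; 0.00301 to 0.738 over 13 alternatives). In the first experiment the same comparison in subclone 2 gave -0.39 ± 0.29 for ITGB5, with 218 to 343 CPM in lung and 210 to 483 CPM in liver. The 8 laminin genes had a median of 0.09, with 5 above 0 and 3 below, while the median over all genes was -0.03.

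**Figure D5:**
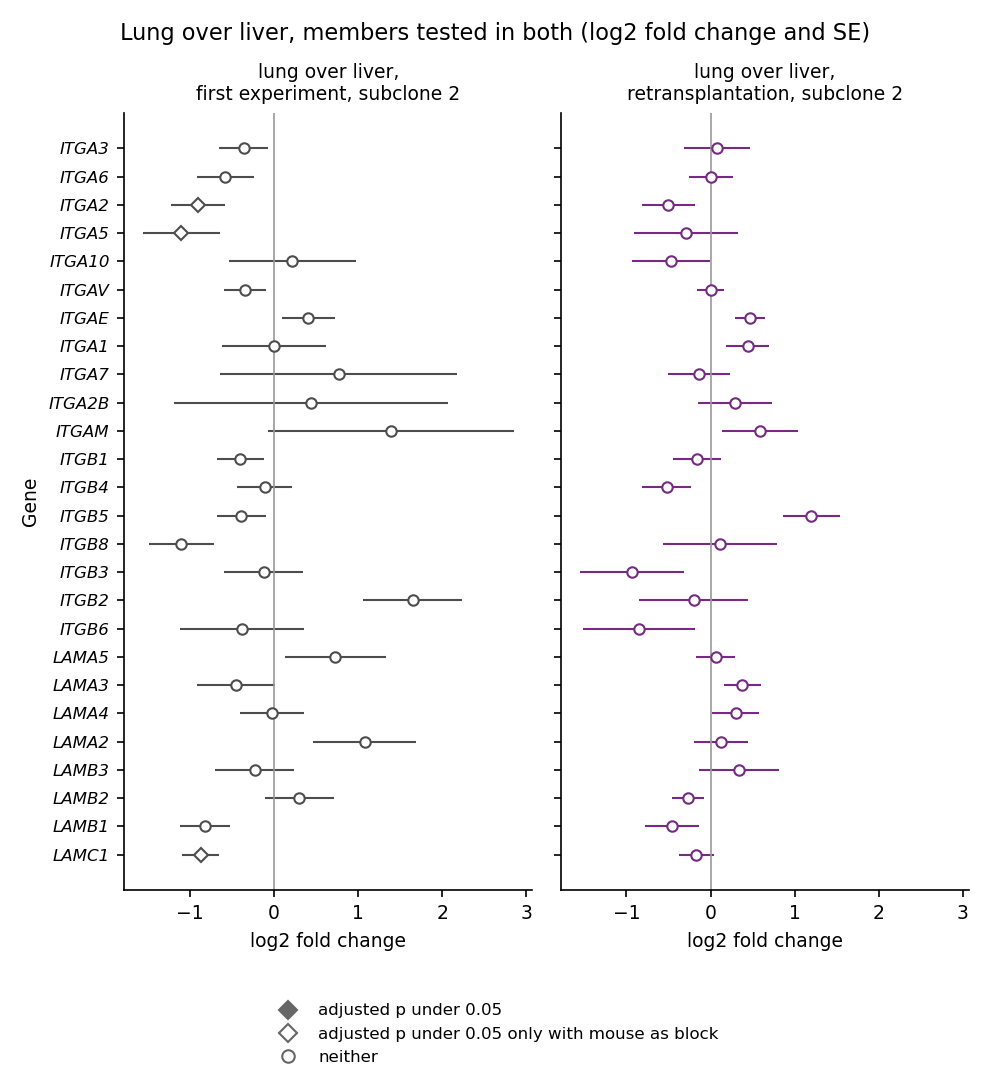
Log2 fold change of lung over liver for the 26 genes tested in both experiments, with SE as bars, in subclone 2 of the first experiment and of the retransplantation; open diamonds mark genes with an edgeR adjusted p under 0.05 only with mouse as a block and circles all others. ITGB5 is at 1.20 in the retransplantation and at -0.39 in subclone 2 of the first experiment.

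ITGA10, a collagen receptor chain best known from cartilage, was low in mouse 1. The 6 samples of mouse 1 had 69.8 to 147 CPM (median 93.4), below all 12 samples of mice 2 and 3, which had 182 to 646 CPM (median 399). ITGA7, near the floor, lay below as well, at 0 to 0.492 CPM in mouse 1 and 0.605 to 3.85 CPM in mice 2 and 3. How many of all genes separate by mouse in this way was not counted. The 9 libraries of subclone 13 from mouse 1, read in runs 1, 2 and 3, allow a look at the run: before scaling, ITGA10 had 72.9, 84.8 and 86.7 CPM in lung, 122, 128 and 133 CPM in liver and 59.1, 67.1 and 66.8 CPM in tumour in those runs, so its level in subclone 13 of mouse 1 was low in each run. Within each mouse ITGA10 was higher in lung and in liver than in tumour in both subclones. With the block the lung difference was 0.92 ± 0.28 in subclone 13 and 1.0 ± 0.28 in subclone 2, and it did not pass (edgeR adjusted p 0.0886 and 0.0569; without the block 0.905 and 0.683, and for subclone 2 from 0.0178 to 1 over 15 alternatives).

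The partners of these genes were looked at as lists, which were chosen with earlier results of these data known. Of 11 other basement membrane genes tested, 1 was lower in lung than in tumour in each subclone, which was COL4A1, a chain of type IV collagen (-1.57 ± 0.30 in subclone 13 and -1.88 ± 0.30 in subclone 2, edgeR adjusted p 0.0213 and 0.00857). The list's median was -0.92 in subclone 13 and -0.43 in subclone 2. Of 17 integrin ligands, 2 were lower in each subclone, and these were COL1A2 of type I collagen (-2.72 ± 0.41 and -2.99 ± 0.41, edgeR adjusted p 0.00566 and 0.00294) and TNC, tenascin C (-1.94 ± 0.23 and -1.92 ± 0.23, adjusted p 0.000584 and 0.00122). The ligands' medians were -0.75 and -0.35. With the block, 4 ligands passed in subclone 13 and 6 in subclone 2, all lower, and 3 and 2 of the other basement membrane genes. Of all genes tested between lung and tumour, 0.419% passed in subclone 13 and 0.436% in subclone 2 without the block. With it, 2.89% and 3.05% passed. Between liver and tumour COL4A1 was lower in subclone 2 (-1.69 ± 0.30, edgeR adjusted p 0.0192), and between lung and liver COL1A2 was (-2.57 ± 0.41, adjusted p 0.0402). With the block COL1A2 was lower in lung than in liver in subclone 13 too (-1.89 ± 0.38, edgeR adjusted p 0.0377). In the retransplantation it went the other way with the block, higher in lung (2.90 ± 0.44, edgeR adjusted p 0.0475). In subclone 2 of the first experiment COL1A1 was also higher in lung with the block (1.91 ± 0.49, edgeR adjusted p 0.0401), while TNC was lower (-0.86 ± 0.17, 0.0123).

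Of 29 adaptors and kinases that join integrins to the cytoskeleton, 1 passed between lung and tumour in subclone 2, FERMT1, which encodes kindlin-1, an activator of integrins (-1.68 ± 0.29, edgeR adjusted p 0.0119), and 0 in subclone 13. With the block 5 passed in each subclone, all lower, and the list's median was -0.46 in subclone 13 and -0.41 in subclone 2, with 11 genes in each at an unadjusted p under 0.05. Of all genes 2.89% and 3.05% passed with the block, and 7.76% and 9.32% had an unadjusted p under 0.05. None of the 7 laminin receptors that are not integrins, the 7 membrane partners of integrins or the 5 hemidesmosome genes passed between metastases and tumour without the block. With it, named after their values were seen, BCAM (0.87 ± 0.23), a laminin receptor of the immunoglobulin family, and the tetraspanin CD9 (0.78 ± 0.20) rose in lung of subclone 2 (edgeR adjusted p 0.0417 and 0.0421). COL17A1, the hemidesmosomal collagen, fell in lung of subclone 13 (-1.38 ± 0.34, edgeR adjusted p 0.0325). In liver the syndecan SDC4 fell in subclone 13 (-1.15 ± 0.29, edgeR adjusted p 0.0497) and the keratin KRT14 in subclone 2 (-2.75 ± 0.60, 0.0192). Between subclones SPARC, a collagen-binding matrix protein, was higher in subclone 13 in tumour (4.46 ± 0.43), lung (4.73 ± 0.44) and liver (4.64 ± 0.43; edgeR adjusted p 9.61e-05, 5.13e-05 and 5.84e-05), and MCAM, of the same family as BCAM, in liver (1.97 ± 0.34, adjusted p 0.0199). With the block MCAM was higher in subclone 13 in lung as well (1.63 ± 0.30, edgeR adjusted p 0.00799).

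Reads of some chains could be shared with genes on the other strand. LAMB1 overlaps DLD over 70 exonic bases (179660 counts of LAMB1 and 64100 of DLD in the first experiment) and LAMA5 overlaps ADRM1 over 244. ITGB7 shares 1886 exonic bases with ZNF740, and its 212 counts stand beside 17534 of that gene, so the level of ITGB7 is uncertain.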

How the data were processed

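Read counts per gene, as deposited by the authors in 2 unfiltered tables, were used as raw counts; per the submitters' processing notes they were made with bcl2fastq 2.15.0.4, cutadapt, STAR and featureCounts on GRCh38, and per the labels' protocols from Qiagen miRNeasy RNA and Illumina TruSeq RNA v2 libraries, which keep no strand. Ensembl IDs were named from GENCODE 29, where all 40950 were found. The 3 libraries of each organ of mouse 1, subclone 13 were summed, since 6 of the 30 libraries are labelled technical replicates. The 13 comparisons used edgeR 4.0.16 (R 4.3.3): TMM scaling, filterByExpr, a quasi-likelihood F test with all groups of an experiment in 1 fit, and Benjamini-Hochberg adjustment over all 17418 or 17549 genes tested, with a threshold of 0.05. SE is the log2 fold change over the root of F. Levels are TMM-scaled CPM, per kb of summed exon where genes are compared. Without the block, p-values measure the spread between mice within groups. With it, they measure the spread left after differences between mice are taken out. In the first experiment the spread between mice includes that between runs.

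Same-numbered samples come from the same mouse per the labels, so the numbers pair the samples. Deviations from the group mean correlated between samples of the same mouse (median 0.36, lowest 0.152, 45 pairs; retransplantation 0.30, 3 pairs). Between samples of different mice the medians were -0.25 and -0.20. Taking out the group mean makes those values negative where samples of a mouse deviate together, so they are no separate evidence of pairing. Because of the same-mouse values, a fit with mouse as a block was run beside each test. The other alternatives were RLE scaling, DESeq2 1.42.0, no filter on low counts, only the groups compared, only the library not labelled technical, and leaving out each sample or mouse. The fitting script was tested on simulated data.

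1 gene that also matches the naming rule stayed in the fits but is not reported here and enters no count, share or median given. The members and the lists of related genes were chosen with earlier results of these data known. A gene was given in full where it passed with or without the block, and the highest 4 integrin alpha, 3 integrin beta and 4 laminin chains per kb with their levels. Of the other lists, genes that passed without the block were given, and some calls made only with it, named after their values were seen. ITGA1, ITGA10, ITGB5 and ITGB8, and LAMB1, LAMC1 and ITGA2 where they did not pass, were named for their values after those were seen. Figures were drawn with matplotlib 3.10.9.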

Additional observations from a re-analysis of the deposited data

How the results depend on the processing

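Alternatives were run for 18 fold changes, those of genes that passed in any setting with all samples, and 0 of these 18 changed direction; the other fold changes given were not followed. Lung over tumour had 1 gene passing in each subclone. In subclone 2 DESeq2 gave 3, no filter on low counts 5, mouse as a replicate block 5 and only the groups compared 0 (LAMC1 then at an edgeR adjusted p of 0.0720, over 15 alternatives from 2.10e-07 to 0.358); over all genes the first 3 of these settings moved 76 calls to 337, 219 and 532. In subclone 13 DESeq2, no filter, the block and only the groups compared each gave 2. Over all genes the block moved 73 calls there to 503. With a sample or mouse left out there were 0 to 2 in subclone 13 and 0 to 3 in subclone 2. Liver over tumour, with 0, gave 1 in subclone 13 with RLE scaling, DESeq2, the block and only the library not labelled technical, with 0 to 1 when samples were left out. Over all genes the block moved 67 calls in that subclone to 318. Lung over liver, with 0 in subclone 2, gave 1 with DESeq2 and 3 with the block, which moved 4 calls over all genes to 514. Subclone 13 over 2, with 0, gave 1 with no filter in tumour, 1 each with no filter and the block in lung, and 2 and 1 in liver. Over all genes the block moved 32 calls to 269 in lung and 43 to 262 in liver. The retransplantation, with 0, gave 1 with DESeq2 and 1 with no filter (ITGB5). The block changed no other call. Calls over all genes under the remaining settings are not given, so the counts under those settings are not read as a result about these genes. RLE scaling moved the median of all genes by -0.05 to 0.04. There were 3 mice a group, and the biological coefficient of variation was 0.476 (0.330 with the block), and 0.296 and 0.227 in the retransplantation. Differences above 1 on the log2 scale could miss the threshold, as that of ITGA5 in lung over tumour did without the block. A gene that did not pass is therefore not shown to be unchanged, and chains with few counts in all cannot be compared.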
